A study of Homo sapiens with 16 samples.

Results

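The DNA replication and E2F target genes described here are 54 genes that build, start and supply the replication fork or are classic targets of the E2F transcription factors. They were taken by symbol from the 58243 rows of the deposited count table, and all 54 passed the filter on low counts that left 16647 genes for testing. By role, 11 act in origin licensing or its control, 6 in activation of the helicase, 26 at the fork, in its checkpoint or in chromatin assembly behind it, 4 in nucleotide supply, and 7 are E2F factors, E-type cyclins or DTL. The cells were U-251 MG, a long-established line from a human glioblastoma, and their poly(A) RNA was read after 48 h of treatment that began 24 h after seeding. DMSO, the vehicle, was given to the first of 4 groups, 0.06 µM simvastatin to the second, 0.6 µM irinotecan to the third and both drugs at those doses (the combination) to the fourth, with 4 libraries in each. No label states that libraries within a group were separate cultures, and p-values therefore measure only the spread between these libraries. Simvastatin inhibits HMG-CoA reductase, the enzyme that commits carbon to sterols and isoprenoids. Irinotecan is a prodrug whose active form traps topoisomerase I on DNA, where an arriving replication fork turns the trapped enzyme into a break.

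Replication is prepared in G1. In that phase the origin recognition complex with CDC6 and CDT1 loads the MCM2 to MCM7 ring onto DNA as an inactive double helicase. Geminin (GMNN) later blocks CDT1 so that no origin is loaded again in the same cycle. In S phase CDC45 and the GINS complex join the ring to form the active helicase, and polymerases, the PCNA clamp with its RFC loader, and enzymes that make deoxynucleotides follow it. Most of these genes are switched on at the G1/S boundary by E2F factors once cyclin E and its kinase have inactivated the RB protein, and E2F7 and E2F8 are repressors that close the wave.

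Promoters of 6 genes are shown as examples: MCM6, MCM2 and E2F1 were called lower with irinotecan, and CDT1, RFC3 and RRM2 were called higher. The calls of MCM2 and E2F1 were each lost without any of 3 different libraries, as given below. Each sequence runs 5′ to 3′ on the strand of the gene, from 250 bases before to 50 bases after the RefSeq start on GRCh38.p14, and capitals mark the E2F octamers TTTCCCGC, TTTCGCGC, TTTGGCGC and TTTGCCGC, searched on both strands. The windows are chr2:135876394-135876693 on the minus strand for MCM6, chr3:127598161-127598460 on the plus strand for MCM2, chr20:33686336-33686635 on the minus strand for E2F1, chr16:88803539-88803838 on the plus strand for CDT1, chr13:33817899-33818198 on the plus strand for RFC3, and chr2:10122489-10122788 on the plus strand for RRM2.
MCM6: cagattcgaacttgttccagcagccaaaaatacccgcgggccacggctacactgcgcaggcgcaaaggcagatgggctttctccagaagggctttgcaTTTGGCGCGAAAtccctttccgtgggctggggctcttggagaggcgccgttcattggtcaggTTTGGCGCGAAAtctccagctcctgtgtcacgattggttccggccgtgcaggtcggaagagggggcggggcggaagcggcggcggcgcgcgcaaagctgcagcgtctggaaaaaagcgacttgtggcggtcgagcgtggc
MCM2: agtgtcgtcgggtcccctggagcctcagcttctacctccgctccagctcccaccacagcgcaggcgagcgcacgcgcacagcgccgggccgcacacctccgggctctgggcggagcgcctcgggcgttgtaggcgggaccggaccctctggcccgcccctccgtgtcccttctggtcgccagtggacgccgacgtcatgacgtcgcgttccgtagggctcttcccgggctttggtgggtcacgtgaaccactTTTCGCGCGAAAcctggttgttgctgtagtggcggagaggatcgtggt
E2F1: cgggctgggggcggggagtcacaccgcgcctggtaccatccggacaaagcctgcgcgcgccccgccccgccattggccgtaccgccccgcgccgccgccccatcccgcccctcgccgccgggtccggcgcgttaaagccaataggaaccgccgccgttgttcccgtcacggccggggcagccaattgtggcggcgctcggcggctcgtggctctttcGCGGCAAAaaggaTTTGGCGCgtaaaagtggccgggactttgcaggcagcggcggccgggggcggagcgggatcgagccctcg
CDT1: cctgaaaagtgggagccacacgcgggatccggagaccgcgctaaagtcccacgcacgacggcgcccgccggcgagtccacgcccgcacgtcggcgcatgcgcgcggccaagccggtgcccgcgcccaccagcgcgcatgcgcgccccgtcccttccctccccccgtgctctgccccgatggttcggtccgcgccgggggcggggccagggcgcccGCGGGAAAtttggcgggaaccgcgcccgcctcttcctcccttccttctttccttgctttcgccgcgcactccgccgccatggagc
RFC3: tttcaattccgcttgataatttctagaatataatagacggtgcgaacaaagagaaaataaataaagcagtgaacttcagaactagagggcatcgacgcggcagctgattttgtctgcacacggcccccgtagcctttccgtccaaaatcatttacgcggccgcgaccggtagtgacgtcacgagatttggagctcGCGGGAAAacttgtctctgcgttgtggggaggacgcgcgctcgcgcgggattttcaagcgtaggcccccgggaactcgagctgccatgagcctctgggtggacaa
RRM2: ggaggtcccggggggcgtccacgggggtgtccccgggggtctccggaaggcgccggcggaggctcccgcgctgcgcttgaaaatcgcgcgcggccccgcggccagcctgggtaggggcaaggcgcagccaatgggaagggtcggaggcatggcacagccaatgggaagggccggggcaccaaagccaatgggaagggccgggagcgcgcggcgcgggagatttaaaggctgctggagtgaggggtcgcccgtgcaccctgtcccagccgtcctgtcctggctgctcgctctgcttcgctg
The MCM6 window holds 4 octamers in 2 overlapping pairs, the first beginning 152 and 148 bases and the second 90 and 86 bases before the start. In MCM2 2 overlapping octamers lie just after the start, in E2F1 2 lie at 33 and 20 bases before it, and in CDT1 and RFC3 there is 1 each, at 35 and 55 bases before it. The RRM2 window shown has none of these letters, nor has the other RRM2 window of the table. RefSeq promoters were matched for 46 of the 54 genes, and 23 of them (50%) held at least 1 octamer, against 6.26% of the other tested genes with a promoter in the table. The cell-cycle hexamer TTTGAA of late-cycle promoters was found in 2 of the 46 (4.35%), against 14.2% of tested genes and 10 of 16 genes of a G2/M list. Of the genes that fell with irinotecan, 7 of 8 with a promoter held an E2F octamer (E2F1, GINS2, MCM2, MCM6, MCM7, PCNA and POLA1, but not CDC45). Among those that rose it was 8 of 23, and among those not called 8 of 15. GINS2, PCNA and POLA1 had at most 1 octamer in any window. MCM4 and MCM5, which also fell, had no promoter in the table. The calls of E2F1, MCM2, MCM7 and CDC45 were each lost when certain single libraries were left out. These shares are descriptions of letters in short windows, and binding of any factor was not measured. Only the exact octamers listed were searched, and windows without them were not checked for other E2F sites.

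Library totals ran from 24159673 to 32318888 counts, and the share of counts from mitochondrial genes from 2.37% to 4.58%. Levels are given in CPM, counts scaled to a common library size, with library sizes scaled by TMM, a method that sets the bulk of genes to no change. Its factors were 0.97 to 0.99 without irinotecan and 1.01 to 1.03 with it. The label of the line was checked on 9 glial markers: VIM, NES, CD44, SOX2, SOX9, EGFR, FABP7 and GFAP stood at 92.0 CPM or more in every group mean, while S100B averaged 4.65 to 5.06 CPM. Summed levels of leukocyte, endothelial and epithelial markers did not pass 1.69 CPM in any library, and those of neuronal markers lay between 16.3 and 26.0 CPM, mostly SYT1. Some of these moved with irinotecan: the 9 glial markers summed to 7644 to 7949 CPM with DMSO and 5728 to 5878 CPM with irinotecan, GFAP alone averaging 202 and 94.6 CPM, the 3 neuronal markers to 16.3 to 18.5 CPM and 19.8 to 22.6 CPM, and the 3 endothelial markers to 0.331 to 0.756 CPM and 0.836 to 1.69 CPM. With simvastatin alone the neuronal sum was 19.8 to 22.5 CPM, also above every DMSO library, and the glial sum 7397 to 7533 CPM, also below. The endothelial sum, 0.282 to 0.660 CPM with simvastatin, overlapped DMSO. The part of these markers in the results was not tested. Tests are edgeR quasi-likelihood F tests fitted to all 16 libraries, errors of log2 changes are standard errors, and a call means an adjusted p under 0.05 by the Benjamini-Hochberg method across the 16647 genes.

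Levels were also expressed per kilobase of exon, where RPKM is the CPM divided by the exon length in kilobases. That length is the union of all annotated exons of a gene, and ranks between genes depend on it. On this scale the DMSO means ran from 171 (PCNA) and 121 RPKM (TK1) down to 3.98 (CCNE1) and 3.79 RPKM (CCNE2). Among the E2F factors E2F1 was the highest (31.98 RPKM), followed by the repressor E2F7 (12.6 RPKM), E2F2 (6.95 RPKM) and E2F8 (4.60 RPKM). The GINS subunits, which join the helicase together, had 16.9 RPKM for GINS2, 12.6 RPKM for GINS1, 11.3 RPKM for GINS4 and 4.99 RPKM for GINS3.

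**Figure D1:**
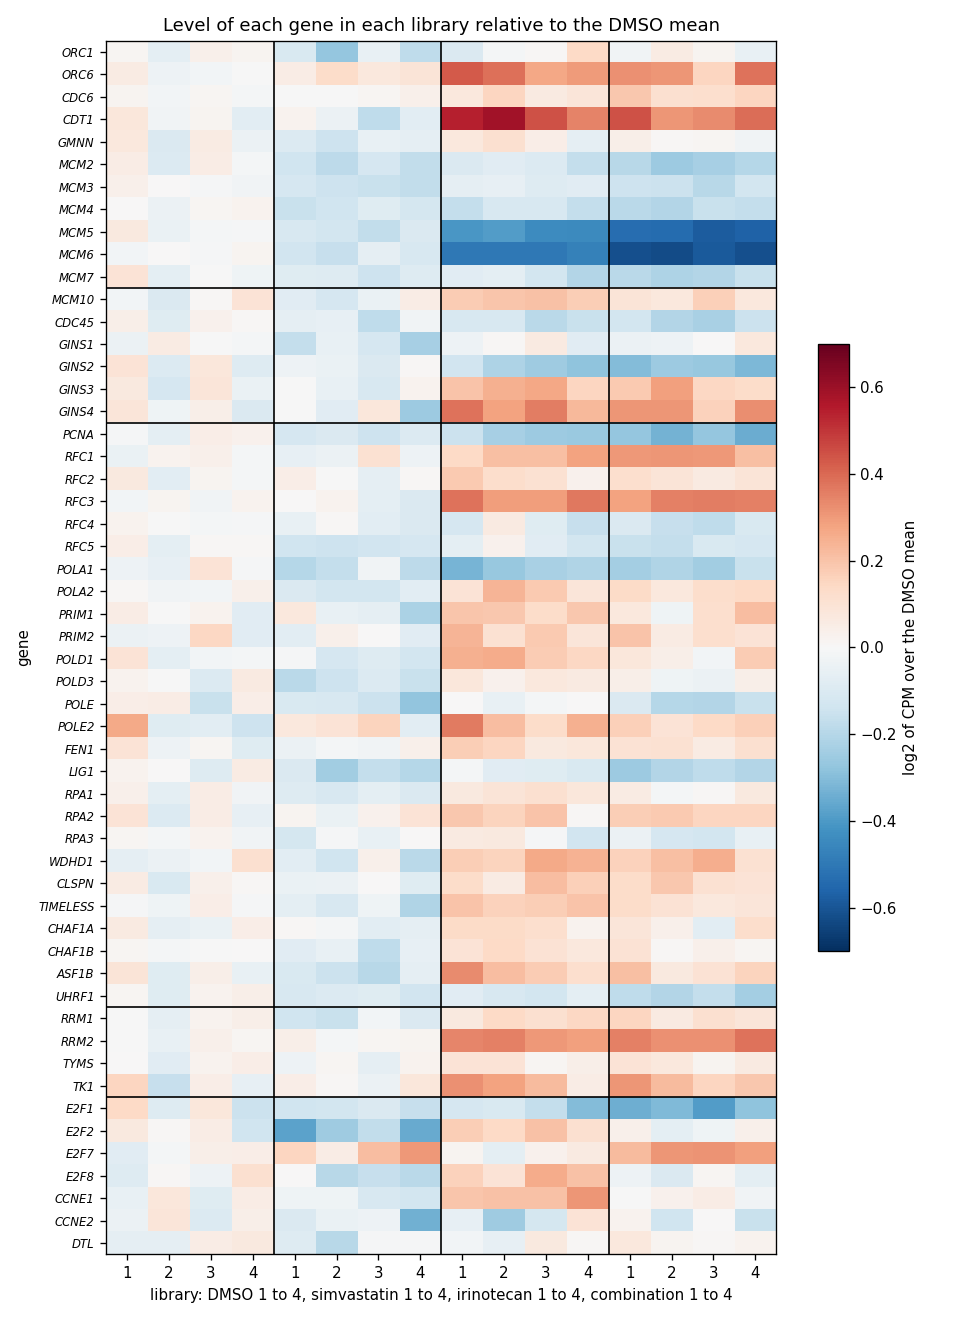
Level of each of the 54 genes (vertical axis, in blocks by role) in each of the 16 libraries (horizontal axis, 4 per group), as log2 of its CPM over the DMSO mean. MCM5 and MCM6 are blue in all 8 libraries with irinotecan, while CDT1, ORC6, RFC3 and RRM2 are red in the same 8.

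With irinotecan alone the 54 genes split. MCM2, MCM4, MCM5, MCM6 and MCM7 of the helicase ring, PCNA, POLA1, GINS2, CDC45 and E2F1 fell, while CDT1, ORC6, 14 fork genes and the ribonucleotide reductase subunit RRM2 were among those that rose. In all, 26 of 54 were called higher, beside 12.4% of all genes tested, 10 were called lower, beside 11.7%, and 18 were not called. The median log2 change of the 54 was 0.10, against -0.00 over all genes tested. Libraries of the groups did not overlap for 29 genes, 20 above and 9 below DMSO, while 23.4% of all genes tested did not overlap in either direction. These are bulk libraries, in which a change in the share of cells in S phase and a change in RNA per cell cannot be told apart, in either direction. The G2/M list, read in the same libraries, had 4 of 20 genes higher and 4 lower, and its summed level was 6088 to 6601 CPM with irinotecan and 6154 to 6638 CPM with DMSO.

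**Figure D2:**
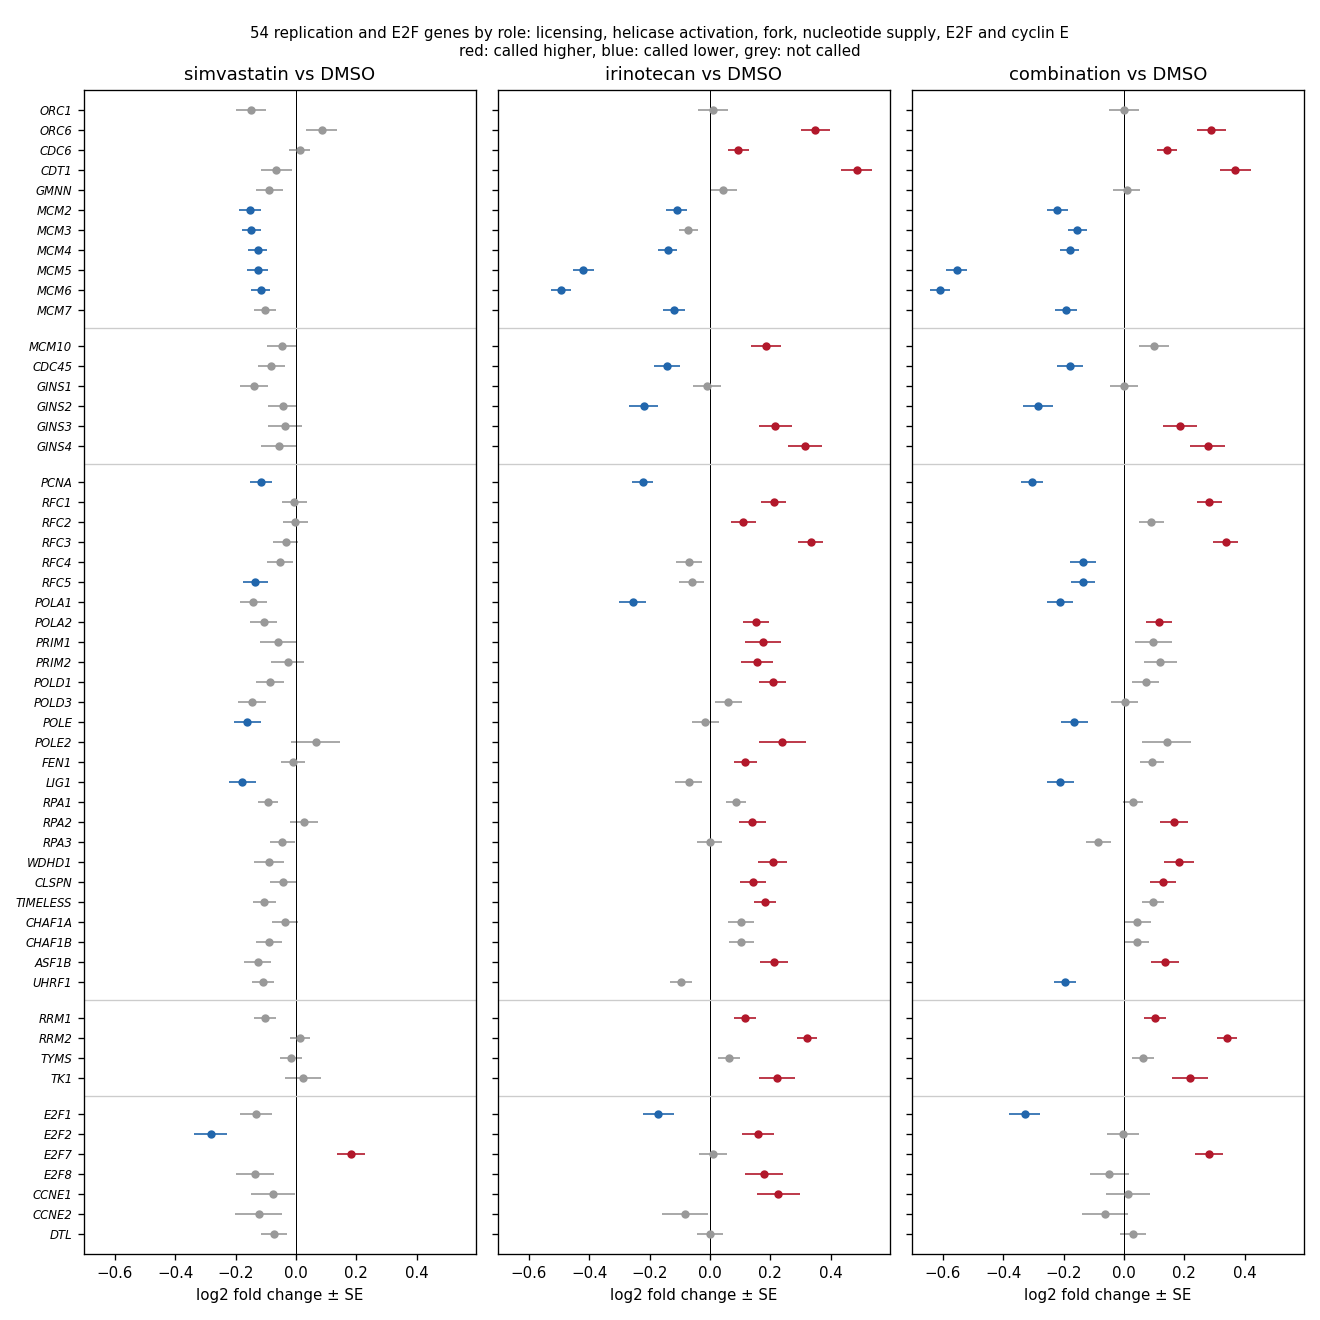
Log2 fold change with its standard error (horizontal axis) of each of the 54 genes against DMSO, with simvastatin, irinotecan and the combination in separate panels and genes in blocks by role. With irinotecan 26 points are called higher and 10 lower, and MCM5 and MCM6 lie farthest to the left.

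Among the licensing genes, 5 of the 6 ring subunits were called lower with irinotecan and MCM3 was not, while CDT1, ORC6 and CDC6 were called higher and ORC1 and GMNN were not called. MCM6 (ENSG00000076003, chromosome 2, 135839626 to 135876426, minus strand) stood at 182, 185, 184 and 187 CPM in the DMSO libraries and at 130.0, 130.4, 130.1 and 133 CPM in the irinotecan libraries. MCM5 (ENSG00000100297, chromosome 22, 35400063 to 35425430, plus strand) stood at 234, 216, 221 and 222 CPM with DMSO and at 168, 170.3, 164 and 164 CPM with irinotecan. All 4 irinotecan libraries lay far below all DMSO libraries for both genes. The log2 change was -0.50 ± 0.03 for MCM6 (adjusted p = 1.13e-12) and -0.42 ± 0.03 for MCM5 (adjusted p = 7.21e-11), or 0.710 and 0.748 times the DMSO level. The other ring subunits moved less. MCM2 had 269, 244, 269 and 258 CPM with DMSO and 243, 246, 243 and 231 CPM with irinotecan, and the groups overlapped. MCM3 had 270.1, 264, 262 and 259 CPM with DMSO and 252, 254, 248 and 249 CPM with irinotecan, below DMSO in every library, but its change of -0.07 ± 0.03 was not called (adjusted p = 0.0983). MCM4 (-0.14 ± 0.03, adjusted p = 0.00115), MCM7 (-0.12 ± 0.04, adjusted p = 0.0173) and MCM2 (-0.11 ± 0.04, adjusted p = 0.0223) were called lower. Per kilobase of exon, MCM7 was the highest of the ring in DMSO, with a mean of 90.5 RPKM, and MCM5 the lowest, with 30.4 RPKM. The place of MCM5 rests on its exon union of 7338 bases, against 4118 for MCM6. In CPM it stood above MCM6 in every DMSO library. The ratio of MCM7 to MCM5 per kilobase averaged 2.98 (range 2.93 to 3.04) with DMSO and 3.67 (3.51 to 3.73) with irinotecan. This pair was not fixed in advance, and its ratio is given without a test.

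CDT1 (ENSG00000167513, chromosome 16, 88803213 to 88809258, plus strand) stood at 61.2, 56.9, 58.7 and 55.0 CPM with DMSO and at 84.4, 87.1, 79.0 and 73.7 CPM with irinotecan. Every irinotecan library was above every DMSO library, and the log2 change of 0.49 ± 0.05 (adjusted p = 1.37e-08) was the highest of the 54. GMNN, the inhibitor of CDT1, had 67.9, 60.1, 67.2 and 62.8 CPM with DMSO and 67.8, 69.6, 66.7 and 61.7 CPM with irinotecan, a difference of 0.04 ± 0.05 that was not called (adjusted p = 0.543). Per kilobase, CDT1 was 0.667 (0.649 to 0.702) of GMNN with DMSO and 0.904 (0.880 to 0.929) of it with irinotecan, a ratio chosen after its values were seen and given without a test. ORC6 (chromosome 16, 46689643 to 46698394, plus strand), the smallest origin recognition subunit, had 43.3, 40.5, 41.1 and 41.5 CPM with DMSO and 56.1, 54.4, 50.3 and 51.3 CPM with irinotecan. It rose by 0.35 ± 0.05 on the log2 scale (adjusted p = 2.09e-06). ORC1, the ATPase of the same complex, was not called (0.01 ± 0.05, adjusted p = 0.924), and CDC6 was called higher by 0.09 ± 0.03 (adjusted p = 0.0442). That CDC6 call was lost without any of 15 different libraries. As a sum, the 11 licensing genes summed to 1909 ± 38 CPM (SD, n = 4) with irinotecan and 2071 ± 52 CPM with DMSO.

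The helicase activators went in both directions, and so did the subunits of the GINS complex, which works as a tetramer. GINS4 had 65.3, 60.2, 63.5 and 57.4 CPM with DMSO and 80.2, 74.9, 78.9 and 72.2 CPM with irinotecan. GINS3 had 26.7, 23.5, 27.0 and 24.6 CPM with DMSO and 29.2, 30.2, 30.7 and 28.2 CPM with irinotecan. Both were higher in all irinotecan libraries, by 0.31 ± 0.06 (adjusted p = 0.000104) and 0.22 ± 0.06 (adjusted p = 0.00413). GINS2 went the other way, from 59.2, 51.7, 58.4 and 51.9 CPM with DMSO to 50.3, 47.5, 46.6 and 45.4 CPM with irinotecan (-0.22 ± 0.05, adjusted p = 0.000963). GINS1 had 49.8, 53.2, 51.1 and 50.7 CPM with DMSO and 49.99, 51.6, 53.4 and 48.5 CPM with irinotecan, and the groups overlapped (-0.01 ± 0.05, adjusted p = 0.927). So within this complex 2 subunits were called higher, 1 lower and 1 not. CDC45, the helicase cofactor, had 63.4, 58.1, 62.8 and 62.0 CPM with DMSO and 57.0, 57.0, 54.0 and 55.2 CPM with irinotecan, all below DMSO (-0.14 ± 0.04, adjusted p = 0.0165). MCM10, which helps to start the helicase, rose by 0.19 ± 0.05 (adjusted p = 0.00492).

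At the fork, 14 of 26 genes were called higher and only PCNA and POLA1 lower. PCNA (ENSG00000132646, chromosome 20, 5114953 to 5126626, minus strand), the sliding clamp that tethers polymerases, had 251, 240.1, 260.0 and 257 CPM with DMSO and 227, 215, 211 and 211 CPM with irinotecan. POLA1, the catalytic subunit of the priming polymerase, had 86.7, 85.2, 94.6 and 88.3 CPM with DMSO and 70.8, 73.9, 75.7 and 76.7 CPM with irinotecan. Neither gene overlapped between groups, and the changes were -0.22 ± 0.04 (adjusted p = 1.45e-05) and -0.26 ± 0.04 (adjusted p = 4.3e-05). The other 3 subunits of the priming complex were called higher: POLA2 (0.15 ± 0.04, adjusted p = 0.0099), PRIM1 (0.18 ± 0.06, adjusted p = 0.0302) and PRIM2 (0.16 ± 0.05, adjusted p = 0.0324). The calls of PRIM1 and PRIM2 were each lost without any of 5 different libraries. With the combination neither was called against DMSO (adjusted p = 0.242 and 0.0965). RFC3 (chromosome 13, 33818049 to 33966558, plus strand), a subunit of the loader that opens the clamp, had 64.6, 66.2, 64.2 and 66.6 CPM with DMSO and 85.0, 80.2, 80.2 and 84.5 CPM with irinotecan. It rose by 0.33 ± 0.04 (adjusted p = 1.62e-07), its large-subunit partner RFC1 rose by 0.21 ± 0.04, and RFC4 and RFC5 were not called. POLD1, the lagging-strand polymerase, ASF1B, a histone chaperone, and WDHD1, which couples helicase and priming polymerase, each rose by 0.21 ± 0.05, and TIMELESS of the fork protection complex rose by 0.18 ± 0.04. POLE, the leading-strand polymerase, had 135, 135, 117 and 135 CPM with DMSO and 131, 126, 129 and 131 CPM with irinotecan, and it was not called (-0.02 ± 0.04, adjusted p = 0.849). LIG1, which seals the lagging strand, had 54.7, 54.0, 50.6 and 56.1 CPM with DMSO and 53.3, 51.0, 50.8 and 49.99 CPM with irinotecan and was not called either (-0.07 ± 0.04, adjusted p = 0.275).

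Of the 4 nucleotide supply genes 3 rose. RRM2 (ENSG00000171848, chromosome 2, 10120698 to 10131419, plus strand), the cell-cycle regulated subunit of ribonucleotide reductase, had 195, 189, 200.4 and 197 CPM with DMSO and 247, 249, 241 and 238 CPM with irinotecan. Its lowest irinotecan library was well above its highest DMSO library, and it rose by 0.32 ± 0.03 (adjusted p = 7.62e-09). The large subunit RRM1 had 243, 234, 248 and 251 CPM with DMSO and 255, 269, 264 and 269.5 CPM with irinotecan (0.12 ± 0.04, adjusted p = 0.0177). TK1, the thymidine salvage kinase, had 250.5, 202, 234 and 217 CPM with DMSO and 282, 274, 263 and 234 CPM with irinotecan, which overlapped (0.22 ± 0.06, adjusted p = 0.00843). TYMS, the thymidylate synthase, had 169.8, 161, 172 and 175 CPM with DMSO and 181, 181, 171 and 174 CPM with irinotecan, and its difference of 0.06 ± 0.04 was not called (adjusted p = 0.236). The summed level of the 4 genes was 834 ± 34 CPM (SD, n = 4) with DMSO, and with irinotecan it was 949 ± 25 CPM. Exons of TYMS lie over those of an antisense neighbour, and 24 of the 54 genes share exon bases with another gene, 19 of them with a gene on the opposite strand. Because the strand setting of the counting is not given in the sources used here, reads of pairs on opposite strands cannot be told apart. On the same strand 7 genes share exon bases with another gene, where no strand setting separates reads. RRM2 shares 1077 of its 5323 exon bases in this way, and POLA2 shares 2012 of 5726.

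Of the E2F factors and cyclins, 3 were called higher with irinotecan and E2F1 lower. E2F1 (ENSG00000101412, chromosome 20, 33675683 to 33686404, minus strand), an activator of the G1/S wave, had 88.2, 75.3, 84.6 and 72.2 CPM with DMSO and 73.9, 74.2, 71.3 and 64.8 CPM with irinotecan. E2F2, a second activator, had 39.8, 38.1, 39.4 and 34.4 CPM with DMSO and 42.6, 41.8, 43.8 and 41.0 CPM with irinotecan. CCNE1, which encodes cyclin E1, had 9.79, 10.7, 9.58 and 10.5 CPM with DMSO and 11.6, 11.7, 11.7 and 12.6 CPM with irinotecan. The E2F1 libraries overlapped, while E2F2 and CCNE1 were higher in every irinotecan library. The changes were -0.17 ± 0.05 for E2F1 (adjusted p = 0.0158), 0.16 ± 0.05 for E2F2 (adjusted p = 0.0261) and 0.23 ± 0.07 for CCNE1 (adjusted p = 0.018). The repressor E2F7 had 75.0, 78.5, 81.5 and 81.8 CPM with DMSO and 80.3, 75.6, 80.9 and 82.7 CPM with irinotecan and was not called (0.01 ± 0.05, adjusted p = 0.902). The repressor E2F8 was called higher (0.18 ± 0.06, adjusted p = 0.0337), and CCNE2 and DTL, a ubiquitin ligase adaptor for CDT1, were not called.

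Of these irinotecan calls, 13 of 26 higher and 6 of 10 lower held whichever library was left out: ORC6, CDT1, MCM10, GINS3, GINS4, RFC1, RFC3, POLD1, WDHD1, TIMELESS, ASF1B, RRM2 and TK1 on the higher side, and MCM4, MCM5, MCM6, GINS2, PCNA and POLA1 on the lower. The call of E2F1 was lost without DMSO library 1 (adjusted p = 0.0994), DMSO library 3 (0.0676) or irinotecan library 4 (0.0608), that of MCM2 without DMSO library 1 (0.0816), DMSO library 3 (0.0834) or irinotecan library 4 (0.0582), that of MCM7 without DMSO library 1 (0.104) or irinotecan library 4 (0.0637), and that of CDC45 without DMSO library 1 (0.0523) or irinotecan library 3 (0.0531). Likewise CCNE1 was not called without DMSO library 1 (0.0546), DMSO library 3 (0.0573) or irinotecan library 4 (0.0679), E2F2 without DMSO library 4 (0.144), irinotecan library 1 (0.0584) or irinotecan library 3 (0.0904), RRM1 without DMSO library 2 (0.0706), irinotecan library 2 (0.0503) or irinotecan library 4 (0.0512), and POLA2 without irinotecan library 2 (0.0651). Each of the other 9 genes called higher lost its call without at least 2 different libraries, with adjusted p up to 0.185 (RFC2). The split between directions also rests on the scaling: with library totals alone, which move the median log2 change of all genes to 0.07, 32 were called higher and 5 lower, and MCM2, MCM4, MCM7, CDC45 and E2F1 were no longer called (adjusted p = 0.477, 0.101, 0.392, 0.261 and 0.179).

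**Figure D3:**
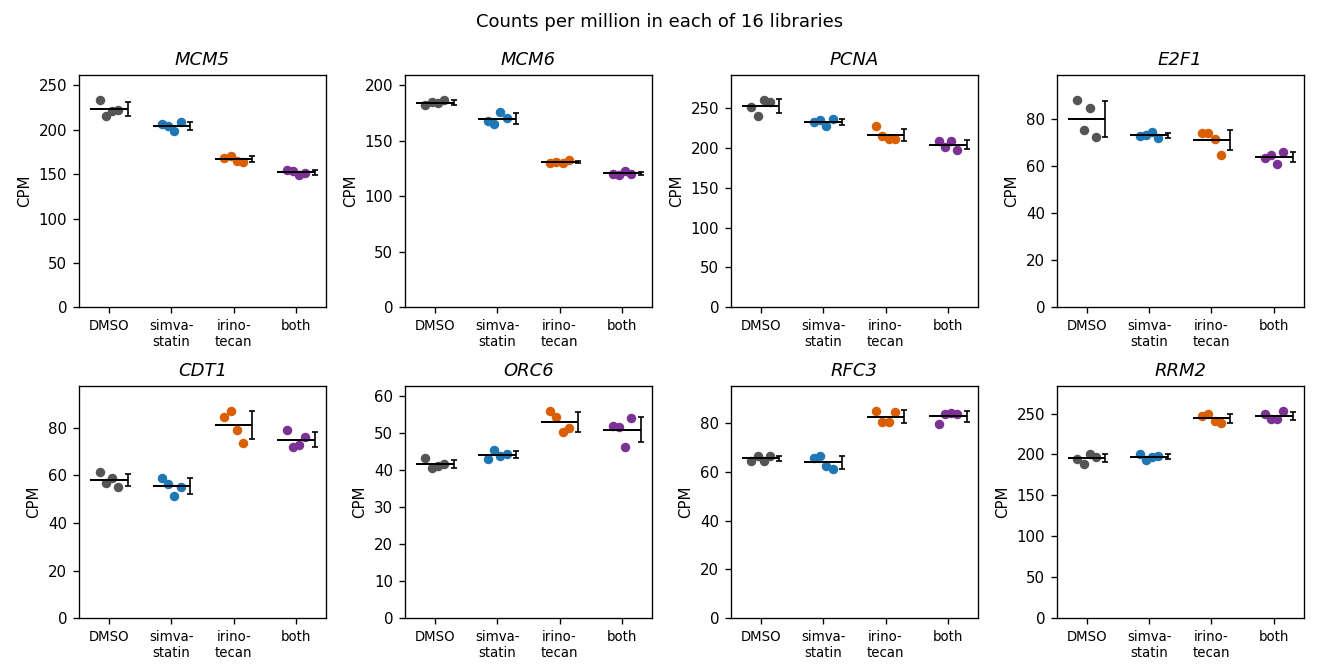
CPM (vertical axes, each from 0) of 8 genes in each of the 16 libraries, in panels by gene and with groups along the horizontal axis; points are libraries, bars the mean and whiskers 1 SD. MCM5 and MCM6 step down from DMSO through simvastatin and irinotecan to the combination, and CDT1, ORC6, RFC3 and RRM2 are higher in the 8 libraries with irinotecan than in the 8 without it.

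Simvastatin alone gave small decreases. It lowered 10 of the 54 genes, beside 2.11% of all genes tested, and raised 1, beside 3.89%. The genes that fell were MCM2, MCM3, MCM4, MCM5 and MCM6 of the ring, PCNA, RFC5, POLE and LIG1 of the fork, and E2F2, and the gene that rose was E2F7. No helicase activation or nucleotide supply gene was called. The median log2 change of the 54 was -0.09, against -0.01 over all genes tested, and 47 of the 54 estimates were at or below 0. Libraries of the groups did not overlap for 16 genes, 1 above and 15 below DMSO, beside 10.0% of all genes tested. In the same comparison 8 of 20 G2/M genes fell and none rose, and the G2/M sum was 5575 to 6045 CPM with simvastatin against 6154 to 6638 CPM with DMSO. Whether the 2 shifts have a common source was not tested.

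MCM3 stood at 243, 238, 237 and 234 CPM with simvastatin, below every DMSO library, and fell by 0.15 ± 0.03 on the log2 scale (adjusted p = 0.00253). MCM2 stood at 236, 229, 239.7 and 231 CPM, also below every DMSO library (-0.15 ± 0.04, adjusted p = 0.00614). MCM5 stood at 207, 204, 198 and 208 CPM (-0.13 ± 0.03, adjusted p = 0.0191). It too lay below every DMSO library. MCM6 stood at 168, 165, 176 and 170.3 CPM, again below every DMSO library (-0.12 ± 0.03, adjusted p = 0.0263). So with simvastatin the ring subunits lay within a narrow band, the 6 of them between -0.15 and -0.10, while with irinotecan they ran from -0.50 to -0.07. E2F2 stood at 29.2, 31.9, 33.6 and 29.7 CPM, under the lowest DMSO library, and fell by 0.28 ± 0.05 (adjusted p = 0.00077), the lowest value of the 54. The repressor E2F7 stood at 87.9, 82.2, 92.0 and 97.6 CPM, above DMSO in every library (0.18 ± 0.05, adjusted p = 0.012). E2F1 at 72.6, 73.1, 74.5 and 71.7 CPM overlapped DMSO and was not called (-0.13 ± 0.05, adjusted p = 0.154).

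Of the fork genes, PCNA stood at 232, 234, 228 and 236 CPM with simvastatin (-0.12 ± 0.04, adjusted p = 0.048). LIG1 stood at 50.2, 45.5, 47.9 and 46.8 CPM (-0.18 ± 0.04, adjusted p = 0.0118). Both lay below every DMSO library. POLE stood at 121, 121, 118 and 108 CPM and overlapped DMSO through DMSO library 3 (-0.16 ± 0.04, adjusted p = 0.0257). RFC3, the loader subunit that rose with irinotecan, was close to DMSO at 65.6, 66.6, 62.3 and 61.0 CPM and was not called (-0.03 ± 0.04, adjusted p = 0.756). POLA1 had 77.3, 79.1, 87.0 and 78.1 CPM, which overlapped DMSO through simvastatin library 3 (-0.14 ± 0.04, adjusted p = 0.0522). The licensing genes outside the ring showed no call. CDT1 had 59.0, 56.4, 51.1 and 55.1 CPM (-0.06 ± 0.05, adjusted p = 0.60). GMNN had 60.4, 58.2, 62.3 and 61.8 CPM (-0.09 ± 0.05, adjusted p = 0.325). ORC6 had 43.1, 45.4, 43.7 and 44.4 CPM (0.08 ± 0.05, adjusted p = 0.415). All 3 overlapped DMSO.

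The nucleotide supply genes were not called with simvastatin. RRM2 had 201, 193, 197 and 198 CPM (0.01 ± 0.03, adjusted p = 0.893). TK1 had 233, 227, 219.8 and 238 CPM (0.02 ± 0.06, adjusted p = 0.907). TYMS had 165, 171, 162 and 172 CPM (-0.02 ± 0.04, adjusted p = 0.899). These 3 estimates are smaller than their errors. RRM1 had 221, 219, 241 and 227 CPM and overlapped DMSO (-0.10 ± 0.04, adjusted p = 0.0921). Nor was any helicase activator called. CDC45 had 58.9, 59.1, 54.4 and 60.4 CPM. GINS1 had 45.7, 49.5, 47.2 and 43.6 CPM, below every DMSO library (-0.14 ± 0.05, adjusted p = 0.0783). GINS2 had 54.0, 53.5, 51.5 and 55.6 CPM. Apart from GINS1 the subunits of the tetramer overlapped DMSO. GINS3 had 25.4, 24.6, 23.6 and 25.9 CPM. GINS4 had 61.4, 58.3, 65.0 and 51.7 CPM. Cyclin E1 also overlapped DMSO, with 9.94, 9.93, 9.39 and 9.31 CPM for CCNE1 (-0.08 ± 0.07, adjusted p = 0.684).

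Only the calls of MCM2, MCM3, MCM4 and E2F2 held whichever library was left out. MCM5 lost its call without DMSO library 1 (adjusted p = 0.0922), LIG1 without DMSO library 4 (0.051) or simvastatin library 2 (0.0551), E2F7 without DMSO library 1 (0.0579) or simvastatin library 4 (0.097), and MCM6, PCNA, RFC5 and POLE each without any of 4 or more different libraries, with adjusted p up to 0.155 (POLE, without simvastatin library 4).

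With both drugs together the genes divided evenly: 16 of 54 were called higher than DMSO, beside 15.1% of all genes tested, 16 were called lower, beside 13.0%, and 22 were not called. The median log2 change was 0.04, against 0.00 over all genes. Groups did not overlap for 31 genes, 15 above and 16 below DMSO, beside 26.2% of all genes tested. All 6 ring subunits fell, together with CDC45, GINS2, PCNA, RFC4, RFC5, POLA1, POLE, LIG1, UHRF1 and E2F1, so 7 fork genes were lower and 7 higher, where irinotecan alone had 2 lower and 14 higher. Since both comparisons use the same DMSO libraries, the direct comparison of the combination with irinotecan, given further on, is the test of that difference. The G2/M list had 7 of 20 genes lower and 2 higher here. With library totals alone the split of the 54 was 25 higher and 13 lower.

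MCM6 stood at 120.3, 119, 123 and 120.4 CPM with the combination. MCM5 stood at 154, 153, 149 and 151 CPM. Both were under every library of the other 3 groups. Their log2 changes against DMSO were -0.61 ± 0.03 (adjusted p = 1.13e-14) and -0.55 ± 0.03 (adjusted p = 1.8e-13), which is 0.655 and 0.681 times the DMSO level. MCM2 had 227, 218, 221 and 226 CPM (-0.22 ± 0.04, adjusted p = 1.9e-05). MCM3 had 239, 238, 230.2 and 241 CPM (-0.15 ± 0.03, adjusted p = 0.000372). These subunits, too, were below every DMSO library. The ratio of MCM7 to MCM5 per kilobase, again given without a test, was 3.83 (3.72 to 3.96) in these libraries and 3.03 (3.00 to 3.06) with simvastatin alone. CDT1 had 78.9, 71.9, 72.8 and 75.9 CPM (0.37 ± 0.05, adjusted p = 1.79e-06), above every DMSO library. GMNN had 66.3, 64.8, 65.1 and 63.5 CPM (0.01 ± 0.05, adjusted p = 0.909) and overlapped DMSO. ORC6 had 52.0, 51.5, 46.2 and 54.1 CPM (0.29 ± 0.05, adjusted p = 3.58e-05). The licensing genes summed to 1821 ± 20 CPM (SD, n = 4) with the combination and 1918 ± 11 CPM with simvastatin.

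E2F1 stood at 63.3, 64.7, 60.9 and 66.0 CPM with both drugs, below every DMSO library (-0.33 ± 0.05, adjusted p = 1.57e-05). E2F7 stood at 92.3, 98.0, 98.3 and 96.5 CPM, above every DMSO library (0.28 ± 0.05, adjusted p = 2.05e-05). The activator E2F1 was thus lower and the repressor E2F7 higher in the same libraries, while the repressor E2F8 was not called (-0.05 ± 0.06, adjusted p = 0.627). The ratio of E2F1 to E2F7 per kilobase averaged 2.55 with DMSO (range 2.22 to 2.96) and 2.05 with simvastatin (1.85 to 2.24). It averaged 2.25 with irinotecan (1.97 to 2.47) and 1.67 with both (1.56 to 1.73). That ratio was chosen after its values were seen and is given without a test. E2F2 had 38.8, 36.2, 37.1 and 38.9 CPM (-0.00 ± 0.05, adjusted p = 0.966). CCNE1 had 10.1, 10.4, 10.5 and 9.97 CPM (0.01 ± 0.07, adjusted p = 0.914). Neither was called and both overlapped DMSO.

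At the fork PCNA had 209, 200.4, 209 and 198 CPM (-0.31 ± 0.04, adjusted p = 7.77e-08). POLA1 had 75.2, 76.6, 74.8 and 79.7 CPM (-0.21 ± 0.04, adjusted p = 0.00043). LIG1 had 45.1, 46.8, 47.5 and 46.7 CPM (-0.21 ± 0.04, adjusted p = 0.000542). All 3 lay below every DMSO library. POLE had 122, 114, 113 and 117 CPM and overlapped DMSO (-0.17 ± 0.04, adjusted p = 0.00586). RFC3 had 79.5, 83.6, 83.9 and 83.6 CPM, above every DMSO library (0.34 ± 0.04, adjusted p = 1.28e-07). UHRF1, which brings the maintenance methyltransferase to newly copied DNA, fell by 0.20 ± 0.04 (adjusted p = 0.000129).

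Of the GINS subunits, GINS3 and GINS4 were called higher and GINS2 lower with the combination, and GINS1 was not called. GINS4 had 76.3, 76.4, 68.9 and 77.1 CPM (0.28 ± 0.06, adjusted p = 0.000427). GINS3 had 28.9, 31.0, 28.1 and 27.8 CPM (0.18 ± 0.06, adjusted p = 0.0137). Both lay above every DMSO library. GINS2 had 44.7, 46.3, 46.0 and 44.5 CPM (-0.29 ± 0.05, adjusted p = 4.18e-05). GINS1 had 49.9, 49.99, 51.3 and 53.8 CPM and overlapped DMSO (0.00 ± 0.05, adjusted p = 0.987). CDC45, at 56.2, 53.5, 52.5 and 55.4 CPM, was below every DMSO library (-0.18 ± 0.04, adjusted p = 0.00246).

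The nucleotide genes were near their levels with irinotecan alone. RRM2 had 249, 244, 243 and 254 CPM (0.34 ± 0.03, adjusted p = 2.12e-09). RRM1 had 270.3, 255, 264 and 259 CPM (0.10 ± 0.04, adjusted p = 0.0308). TK1 had 280.0, 263, 251 and 257 CPM (0.22 ± 0.06, adjusted p = 0.00852). These 3 genes were above every DMSO library. TYMS had 181, 179, 172 and 177 CPM and overlapped DMSO (0.06 ± 0.04, adjusted p = 0.207). The 4 genes summed to 949 ± 22 CPM (SD, n = 4).

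Whichever library was left out, 15 of the 16 calls of lower and 11 of the 16 calls of higher held. The GINS3 call was lost without DMSO library 2 (adjusted p = 0.0656), DMSO library 4 (0.0514) or combination library 2 (0.0686), and that of RRM1 without DMSO library 1 (0.0596), DMSO library 2 (0.112), combination library 1 (0.105) or combination library 3 (0.0605). RFC4 was not called without combination library 2 (0.0512) or combination library 3 (0.0577), and POLA2, CLSPN and ASF1B lost their calls without at least 3 different libraries each.

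**Figure D4:**
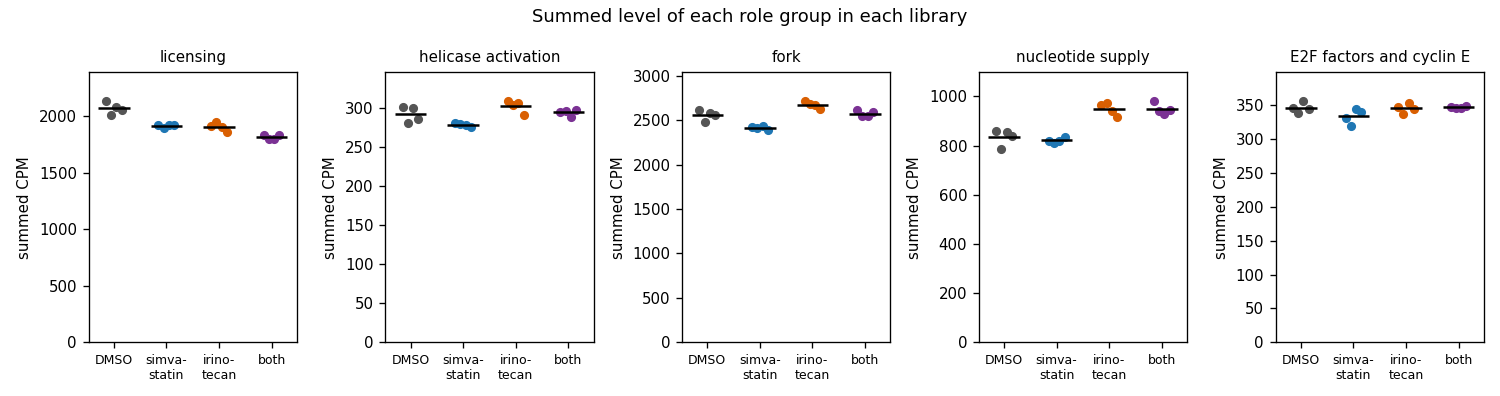
Summed CPM of the genes of each role (vertical axes, each from 0) in each of the 16 libraries, in panels by role and with groups along the horizontal axis; points are libraries and bars the group means. The licensing sum averages 2071 CPM with DMSO and 1821 CPM with both drugs, and the nucleotide supply sum is higher in every library with irinotecan than in any library without it.

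The number of genes called when simvastatin was added to irinotecan depended on the fit. Against irinotecan alone 5 of 54 were called, beside 5.94% of all genes tested. Of these 1 was called higher, beside 4.45% of all genes tested, and 4 lower, beside 1.50%. The gene that rose was E2F7, by 0.27 ± 0.05 (adjusted p = 0.00019), and no library of the 2 groups overlapped. MCM5 (-0.14 ± 0.03, adjusted p = 0.0138), MCM6 (-0.12 ± 0.03, adjusted p = 0.0347), POLE (-0.15 ± 0.04, adjusted p = 0.0436) and the repressor E2F8 (-0.23 ± 0.06, adjusted p = 0.0249) fell. For E2F1 the difference was -0.16 ± 0.05 and was not called (adjusted p = 0.0746). Of the 54, 15 did not overlap between these groups, 1 above and 14 below irinotecan, beside 13.1% of all genes tested. The call of E2F7 held whichever library was left out, and none of the 4 lower calls did. MCM5 was not called without irinotecan library 2 (adjusted p = 0.0552) or combination library 3 (0.0594), while MCM6, POLE and E2F8 each lost their calls without any of at least 5 different libraries. The number called lower was 1 without irinotecan library 2. With library totals alone 10 genes were called lower and 1 higher, and with the compared groups alone 8 lower and 1 higher. With the 12 numbered libraries it was 2 lower and 1 higher, and with the replicate block added to those 12, 13 lower and 2 higher. In the same comparison 5 of the 20 G2/M genes fell and none rose.

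Adding irinotecan to simvastatin again split the genes, with 26 of 54 higher, beside 13.9% of all genes tested, and 5 lower, beside 11.7%. Those that fell were MCM5 (-0.43 ± 0.03, adjusted p = 6.62e-11), MCM6 (-0.49 ± 0.03, adjusted p = 2.31e-12), GINS2 (-0.24 ± 0.05, adjusted p = 0.000432), PCNA (-0.19 ± 0.04, adjusted p = 0.000157) and E2F1 (-0.20 ± 0.05, adjusted p = 0.00611), and these 5 calls held whichever library was left out. CDT1 (0.43 ± 0.05), RFC3 (0.37 ± 0.04), GINS4 (0.34 ± 0.06) and RRM2 (0.33 ± 0.03) were among those that rose. E2F2 rose by 0.28 ± 0.05 (adjusted p = 0.000239) from its lower level with simvastatin. Groups did not overlap for 38 genes, 29 above and 9 below simvastatin, beside 25.8% of all genes tested. Whichever library was left out, 16 of the 26 calls of higher held, those of these 5 genes among them. With library totals alone the split was 33 higher and 5 lower.

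No gene of the 54 passed the test for a combination effect other than the added log2 changes of each drug. The interaction test of edgeR called 0 of 54, beside 0.0120% of all genes tested, and 3 had an unadjusted p under 0.05, beside 6.01% of all genes tested. DESeq2 also called 0 and had 3 under that unadjusted value. The estimate farthest from 0 among those 3 was that of POLA1, 0.19 ± 0.06 (adjusted p = 0.80), followed by GINS1 with 0.15 ± 0.07 and ORC6 with -0.14 ± 0.07. For MCM6 and MCM5 the departures were 0.00 ± 0.05 and -0.01 ± 0.05. A p that misses the threshold does not show that the effects add, but the errors give the size of departure that these libraries could resolve.

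The other genes of the pathway were read from a list of 64 that were not members, all of which were tested. With irinotecan 12 of 64 were called higher, beside 12.4% of all genes tested, and 8 lower, beside 11.7%. With simvastatin 1 was called higher, beside 3.89%, and 6 lower, beside 2.11%. With the combination 11 were called higher, beside 15.1%, and 9 lower, beside 13.0%. The median log2 changes of the 64 were 0.04, -0.07 and -0.00. Among them SAMHD1, a hydrolase of deoxynucleotides, rose by 0.48 ± 0.05 with irinotecan, from a mean of 40.1 CPM to 55.9 CPM. DUT, the enzyme that removes dUTP, fell by 0.30 on the log2 scale, from 386 CPM to 313 CPM, while RRM2 and SAMHD1 rose in the same libraries. CDCA7, an E2F and MYC target, fell with simvastatin (-0.16 ± 0.04), with irinotecan (-0.32 ± 0.04), with both (-0.56 ± 0.04), and with both against irinotecan alone (-0.24 ± 0.04). TFDP2, a dimer partner of E2F factors, fell with simvastatin (-0.22 ± 0.05) and rose with irinotecan (0.35 ± 0.05), as E2F2 did. TONSL, a histone reader at forks, also fell with simvastatin (-0.15 ± 0.04) and rose with irinotecan (0.13 ± 0.04). The gene of the retinoblastoma protein, RB1, was not called with irinotecan (-0.03 ± 0.05), simvastatin (-0.03 ± 0.05) or both (-0.01 ± 0.05). TFDP1, the main dimer partner, was called only with both drugs (0.12 ± 0.04, adjusted p = 0.0153), and CDK2, the partner kinase of cyclin E, only with irinotecan (0.14 ± 0.04, adjusted p = 0.00933), of the 3 comparisons with DMSO. CDC7, the kinase that fires origins, was called in none of the 6 comparisons. TOP1, the target of irinotecan, was not called with irinotecan (0.09 ± 0.04, adjusted p = 0.0797) and rose with the combination (0.15 ± 0.04, adjusted p = 0.00462).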

How the data were processed

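RNA of 16 libraries, 4 per group, was measured by poly(A) RNA sequencing. The authors deposited counts, whole numbers of reads per gene for 58243 genes, without normalisation. Per the submitters' processing notes, FastQC, STAR 2.7.1, GRCh38 and DESeq2 were used. Which annotation and counter made the table, and with which strand setting, is not given in the sources used here.

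The counts were fitted with edgeR 4.0.16 (limma 3.58.1, R 4.3.3): filterByExpr by group (minimum count 10, minimum total count 15), TMM scaling, robust quasi-likelihood models of all 16 libraries with 1 term per group, and two-sided F tests of 6 contrasts with Benjamini-Hochberg adjustment over 16647 genes. The interaction is the log2 change of the combination minus those of both single drugs. Levels per kilobase divide CPM by the exon union of GENCODE 29 on GRCh38. Library totals were 24159673 to 32318888 counts, and the common biological coefficient of variation was 5.25%. Pairs of libraries within a group were checked for duplicates, and the chi-squared per degree of freedom was 2.60 to 15.5, so none was merged.

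In each group 1 library has no number in its label and is called library 4. The members and lists were chosen with earlier results of these data known. Values in every library are given, per role, for the 3 members with the smallest p with irinotecan and the 2 with the smallest p with simvastatin, for the 3 with the smallest p in the interaction, and for 8 fixed genes (E2F1, CCNE1, CDT1, GMNN, MCM2, PCNA, RRM2 and TYMS). Of the other pathway genes, up to 4 with the smallest p per comparison, with RB1, TFDP1, CDK2, CDC7 and TOP1, could be named. Promoter sequences are from RefSeq, GRCh38.p14. Alternatives were DESeq2 1.42.0, other scalings, no filter, a threshold of 0.01, the compared groups alone, the 12 numbered libraries with and without a replicate block, and leaving out each library. The models were tested on simulated data whose smallest planted change exceeded most of the changes called here. That test does not cover the smaller ones. Python 3.11.15 with matplotlib 3.10.9 drew the figures.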

Additional observations from a re-analysis of the deposited data

Results flagged for a closer look

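A library was set apart where its gap to the nearest library of its group exceeded the 95% critical value of Dixon's test, a limit that chance passes in about 1 in 20 groups. Of 100 groups of 4 libraries examined, 5 passed it, and no library passed it for more than 2 genes. MCM6 in irinotecan library 4 stood at 133 CPM, with the others at 130.0 to 130.4 CPM. GINS4 in combination library 3 stood at 68.9 CPM, below the others at 76.3 to 77.1 CPM. RFC3 in combination library 1 stood at 79.5 CPM, below the others at 83.6 to 83.9 CPM. POLE in DMSO library 3 stood at 117 CPM, below the others at 135 CPM. Its change with simvastatin was called with all libraries in the fit. That call was lost without any of 4 other libraries (adjusted p up to 0.155). CCNE1 in irinotecan library 4 stood at 12.6 CPM, above the others at 11.6 to 11.7 CPM, and its call with irinotecan was lost without that library (adjusted p = 0.0679).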

How the results depend on the processing

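No call reversed its direction under any alternative run. Over the 5 comparisons between groups the 54 genes gave 115 calls; of these 111 held with DESeq2, 111 with median-ratio size factors, 107 with library totals alone, 93 with no filter on low counts, 99 with the compared groups alone, 80 with the 12 numbered libraries and 71 at an adjusted p under 0.01. For simvastatin against DMSO the number higher was 0 with the 12 numbered libraries and 0 at 0.01 (1 as reported), and the number lower was 5 with no filter, 2 with the 12 numbered libraries, 3 at 0.01 and 5 with the compared groups alone (10 as reported). For irinotecan against DMSO 17 were higher with the 12 numbered libraries and 14 at 0.01 (26 as reported), and 5 were lower with library totals alone and 6 at 0.01 (10 as reported). Library totals alone gave 25 higher for the combination against DMSO (16 as reported). For the combination against irinotecan, library totals alone gave 10 lower, the 12 numbered libraries 2, the 0.01 threshold 0 and the compared groups alone 8 (4 as reported). At 0.01, 17 were higher for the combination against simvastatin (26 as reported). The smaller designs hold fewer libraries, and the cause of the other shifts was not tested.

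Leaving out each library in turn gave, for simvastatin against DMSO, 0 to 1 higher (0 without DMSO library 1) and 6 to 13 lower (6 without DMSO library 1), and for irinotecan against DMSO 16 to 27 higher (16 without DMSO library 2) and 6 to 11 lower (6 without DMSO library 1). It gave 11 to 17 higher and 15 to 16 lower for the combination against DMSO, 1 higher and 1 to 6 lower (1 without irinotecan library 2) for the combination against irinotecan, 20 to 26 higher and 5 to 7 lower for the combination against simvastatin, and 0 for the interaction.

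The replicate numbers share only a number. In the 12 numbered libraries the correlation of deviations from the group mean ran from -0.06 to 0.20 between libraries of the same number (mean 0.06). The mean for different numbers was -0.03. It is no separate evidence, because deviations from a group's own mean cancel within the group, which ties it to the mean for the same number. Of the 12 libraries, 9 correlated best with their own number, a hint from the data and not from the design. With the replicate block, the counts of higher and lower were 1 and 10 for simvastatin, 22 and 10 for irinotecan and 17 and 17 for the combination, each against DMSO, 2 and 13 for the combination against irinotecan, 26 and 6 for the combination against simvastatin, and 0 and 0 for the interaction. The standard error of the log2 change with irinotecan was 0.03 for MCM6 and 0.08 for CCNE2. How far depth, rather than the spread between libraries, sets these errors was not tested.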
